A study of Mus musculus with 6 samples.

Results

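The 10 genes described here encode nuclear receptors, most of them ligand-sensing, chosen as able to recruit the NCoR and HDAC3 corepressor or to pair with the retinoid X receptor. They are the peroxisome proliferator-activated receptors Pparg and Ppard, the retinoid X receptors Rxra and Rxrb, and the liver X receptors Nr1h2 (LXR beta) and Nr1h3 (LXR alpha). The others are the retinoic acid receptor Rara, the vitamin D receptor Vdr, the glucocorticoid receptor Nr3c1 and the estrogen-related receptor Esrra, an orphan receptor. All 10 were taken by symbol from a table of 18392 genes, and all 10 were among the 10847 genes tested, those averaging 1 FPKM or more across the 6 libraries. FPKM is a read level scaled by transcript length and by library size. RNA was sequenced from alveolar macrophages, which live in the air spaces of the lung and take up surfactant, sorted by flow cytometry from digested lungs of C57BL/6 mice 6 weeks old. Control mice carried Hdac3fl/fl, that is floxed Hdac3 alleles without Cre (3 libraries). Knockout mice were Cd11c-CreHdac3fl/fl, in which the floxed alleles are shared with controls and Cre is driven by Cd11c, a gene that dendritic cells also express (3 libraries). Whether each library came from its own mouse is not given in the sources used here, and p-values speak only of the scatter among these libraries. In bulk RNA, fewer cells of a type and less RNA per cell cannot be told apart.

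Nuclear receptors are transcription factors, many of them switched by small lipid-soluble ligands. PPAR, LXR, RAR and VDR bind DNA as heterodimers with RXR. Without ligand, several of them hold the corepressor NCoR1, which carries HDAC3 as its catalytic deacetylase, and ligand exchanges it for coactivators. In the lung, PPAR gamma is required for alveolar macrophages to form and to clear surfactant lipid, and LXRs drive the export of cholesterol.

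The deleted gene checked the labels first. Hdac3 read 17.71, 19.89 and 16.94 FPKM in the 3 control libraries and 4.36, 5.05 and 3.97 FPKM in the 3 knockout libraries (log2 change of FPKM + 1 -1.81, SE 0.09; limma adjusted p = 6.8e-07). The groups did not overlap, and a gene-level value also counts exons outside the deleted part. All 10 alveolar macrophage markers in the list used here were expressed, and 6 of them rose, 3 fell and 1 was not called as deposited. Of all tested genes, 11% were called higher and 58.8% lower. Their summed level, 17711 to 20153 FPKM in controls and 24854 to 31540 FPKM in knockouts, was mostly Chil3. The 3 falls, against 6 rises, were named after their values were seen. They were Marco, Ear2 (2593.42 to 2837.28 FPKM in controls, 497.08 to 514.34 FPKM in knockouts) and Krt79 (156.6 to 198.39 FPKM and 22.1 to 27.98 FPKM). The 10 most abundant genes took 13.2 to 13.9% of the summed FPKM in controls and 25.5 to 26.8% in knockouts. Across all tested genes the log2 change had a median of -0.31. With TMM scaling (a trimmed mean of log ratios), which sets the bulk of genes level between libraries, that median was 0.02. Each change is therefore given as deposited and after TMM scaling, and a change near -0.31 as deposited lies at the middle of all genes. Of the 10 alveolar macrophage markers 7 rose and 3 fell after TMM scaling, where 29.8% of all tested genes rose and 26.2% fell. The median log2 change of these markers was 0.68 as deposited and 1.06 after TMM scaling.

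In knockouts 9 of the 10 receptors fell as deposited, at a limma adjusted p under 0.05, and none rose. The background was high: 69.8% of all tested genes were called, 58.8% lower and 11% higher. After TMM scaling 5 receptors fell, Vdr, Rxra, Pparg, Nr1h2 and Nr3c1, 1 rose, Ppard, and 4 were not called, beside 56% of tested genes called, 26.2% lower and 29.8% higher. Scaled by library sums that leave out the most abundant genes, 7 receptors fell and 0 rose (tested genes: 60.9% called, 45.5% lower, 15.5% higher), and with median scaling 5 fell and 2 rose (56.7% called, 24.1% lower, 32.6% higher). The median log2 change of the 10 receptors was -0.62 as deposited, against -0.31 for all tested genes, and -0.26 after TMM scaling, against 0.02. The groups did not overlap for any of the 10 receptors in deposited FPKM, as for 74.5% of tested genes; 62.4% of tested genes were, like the 10, both without overlap and lower in knockouts.

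**Figure D1:**
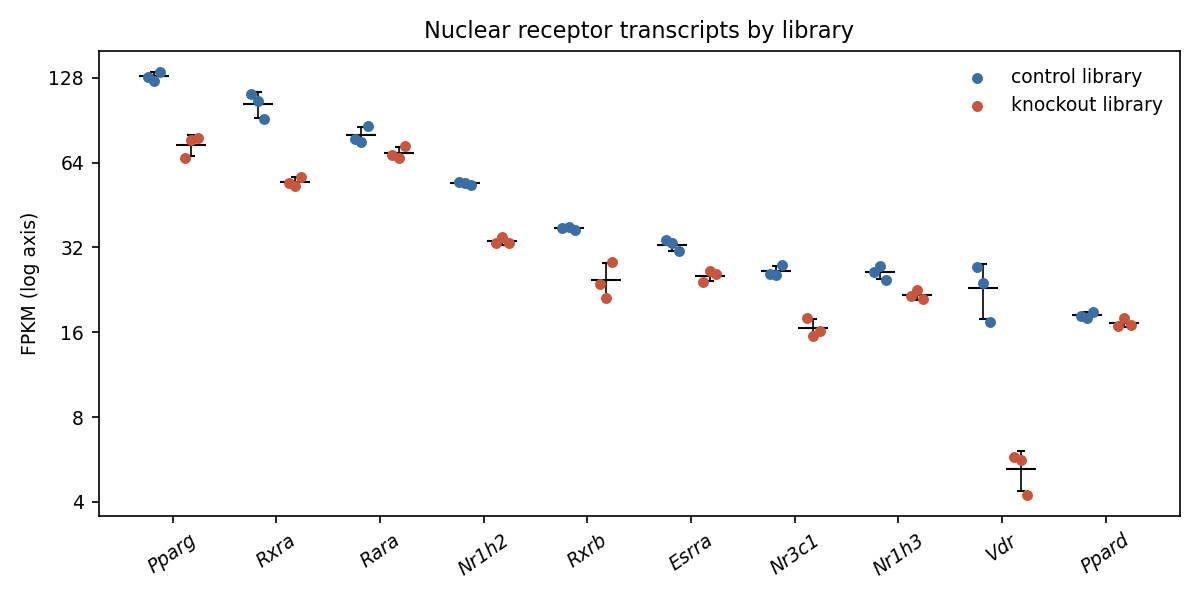
Level of each receptor transcript in FPKM on a log axis, 1 point per library, with the mean (bar) and SD (whiskers) of 3 control and 3 knockout libraries. Vdr drops from 17.40 to 27.28 FPKM in controls to 4.23 to 5.78 FPKM in knockouts, while Ppard stays between 16.89 and 18.94 FPKM.

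Pparg (chr6:115360879-115490404), the fatty acid sensor of alveolar macrophages and of adipocytes, was the most abundant of the 10 in controls; gene positions are RefSeq's on GRCm38.p6. It read 128.82, 125.03 and 134.25 FPKM in controls and 66.67, 76.85 and 78.47 FPKM in knockouts. Every knockout library lay below every control library, and the mean was 42.8% lower. The log2 change came to -0.80 (SE 0.07; limma adjusted p = 1.7e-05), and to -0.43 with TMM scaling (adjusted p = 9.3e-04). Ppard (chr17:28232754-28301469), the broadly expressed PPAR delta, read 18.26, 18.03 and 18.94 FPKM in controls and 16.89, 17.94 and 17.00 FPKM in knockouts. The lowest control library stood barely above the highest knockout library. As deposited its log2 change of -0.09 was not called (95% interval -0.22 to 0.05; limma adjusted p = 0.21). After TMM scaling Ppard rose by 0.27 on the log2 scale (SE 0.06; limma adjusted p = 0.0033). Ppara, the remaining PPAR, was listed at 0 in all control libraries and did not exceed 0.03 FPKM in knockouts.

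Promoter windows from RefSeq (GRCm38.p6, 250 bases before to 50 after a start) were held for 9 of the 10 receptors, with 17 windows. Those of Pparg, Ppard and Vdr are shown because the level of Pparg relative to its isotype Ppard differed between the groups without overlap, and because Vdr had the largest fall. Capitals mark, on either strand, the nuclear receptor hexamer AGGTCA, the GC box GGGCGG, the TATA box TATAAA and the CCAAT box CCAAT. The windows are the first Pparg start (chr6:115360894-115361193, plus strand), the second (chr6:115362099-115362398, plus strand), Ppard (chr17:28232504-28232803, plus strand) and Vdr (chr15:97908247-97908546, minus strand).
Pparg, first start: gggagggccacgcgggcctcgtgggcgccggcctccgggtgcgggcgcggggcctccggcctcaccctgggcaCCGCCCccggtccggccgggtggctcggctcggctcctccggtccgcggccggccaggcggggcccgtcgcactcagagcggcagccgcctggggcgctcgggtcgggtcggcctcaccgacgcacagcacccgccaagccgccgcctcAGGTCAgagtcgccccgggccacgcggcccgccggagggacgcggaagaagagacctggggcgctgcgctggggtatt
Pparg, second start: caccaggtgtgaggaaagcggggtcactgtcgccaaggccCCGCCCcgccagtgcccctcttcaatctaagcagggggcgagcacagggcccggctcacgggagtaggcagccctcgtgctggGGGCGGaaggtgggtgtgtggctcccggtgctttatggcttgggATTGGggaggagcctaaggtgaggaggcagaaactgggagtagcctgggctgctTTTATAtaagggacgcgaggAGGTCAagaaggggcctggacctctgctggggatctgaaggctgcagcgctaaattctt
Ppard: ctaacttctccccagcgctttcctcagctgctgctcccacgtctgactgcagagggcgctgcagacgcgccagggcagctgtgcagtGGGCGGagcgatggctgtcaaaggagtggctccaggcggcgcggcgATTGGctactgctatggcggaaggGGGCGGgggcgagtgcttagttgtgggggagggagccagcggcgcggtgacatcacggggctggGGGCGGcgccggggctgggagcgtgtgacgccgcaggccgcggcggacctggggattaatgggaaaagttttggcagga
Vdr: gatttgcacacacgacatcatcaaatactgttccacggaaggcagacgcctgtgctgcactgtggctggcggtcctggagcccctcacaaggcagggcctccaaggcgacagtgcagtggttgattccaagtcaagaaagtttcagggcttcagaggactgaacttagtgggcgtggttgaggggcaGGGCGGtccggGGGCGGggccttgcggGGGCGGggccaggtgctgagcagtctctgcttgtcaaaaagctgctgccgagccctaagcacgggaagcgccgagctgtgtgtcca
Both Pparg windows hold the letters AGGTCA once, and those of Ppard and Vdr do not. Another Pparg window, further downstream, does not hold them either. The hexamer is in 16.3% of the 32851 windows in the table and in 4 of the 17 receptor windows, the other 2 being a second Rxra start and the fourth Rara start. The GC box is in 11 of the 17, against 35.7% of all windows, with 3 copies each in Ppard and Vdr. The 17 are not all separate stretches, since the first and second windows of Rara overlap, as do those of Nr1h3. No receptor window holds AGGTCANAGGTCA or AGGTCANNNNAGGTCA, the spaced repeats that PPAR-RXR and LXR-RXR dimers prefer, which are in 0.0396% and 0.0152% of all windows. The number of CpG dinucleotides ran from 1, at the second Rxra start, to 55, at the first, with a median of 7 over all windows. It was above that median in 13 of the 17 receptor windows. These matches are descriptions of sequence, and gene-level FPKM does not tell which start was used.

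The retinoid X receptors are the shared partners of the others. Rxra (chr2:27676445-27763319) read 111.89, 105.77 and 91.23 FPKM in controls and 54.20, 52.68 and 57.07 FPKM in knockouts, a mean 46.9% lower. Its log2 change came to -0.90 (SE 0.08; limma adjusted p = 1.5e-05), and to -0.52 with TMM scaling (adjusted p = 6.8e-04), the second largest fall among the 10 under both scalings. Rxrb (chr17:34031812-34038403) read 37.55, 37.69 and 36.86 FPKM in controls and 23.76, 21.18 and 28.44 FPKM in knockouts. The controls were tightly grouped and the knockouts spread, all below the controls. Rxrb fell as deposited (log2 change -0.60, SE 0.09; limma adjusted p = 4.5e-04) and with TMM scaling was not called (log2 change -0.24; adjusted p = 0.068), except without the third knockout library (-0.36; adjusted p = 0.0043). The remaining isotype, Rxrg, did not exceed 0.17 FPKM. The sum of Rxra and Rxrb was 140 ± 11.0 FPKM in controls and 79.1 ± 5.91 FPKM in knockouts (SD, n = 3), and the sum of their partners Pparg, Ppard, Nr1h2, Nr1h3, Rara and Vdr was 331 ± 5.57 and 221 ± 7.83 FPKM.

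The liver X receptors bind oxysterols. Nr1h2 (chr7:44549616-44553968), the widely expressed isotype, read 54.74, 54.17 and 53.18 FPKM in controls and 33.15, 34.71 and 33.14 FPKM in knockouts. Both groups were narrow and lay far apart. The log2 change came to -0.67 (SE 0.05; limma adjusted p = 7.5e-06), and to -0.30 with TMM scaling (adjusted p = 0.0012). Nr1h3 (chr2:91184061-91202829), the isotype of macrophages and liver, read 26.27, 27.55 and 24.60 FPKM in controls and 21.59, 22.64 and 20.98 FPKM in knockouts. It fell as deposited (log2 change -0.25, SE 0.06; limma adjusted p = 0.0061), by less than the median gene, and with TMM scaling it was not called (log2 change 0.11, 95% interval -0.04 to 0.25; adjusted p = 0.19).

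Rara (chr11:98927800-98974942), a receptor for all-trans retinoic acid, read 77.47, 75.68 and 86.58 FPKM in controls and 68.00, 66.21 and 73.02 FPKM in knockouts. The groups were close but did not overlap. Its log2 change was -0.21 as deposited (SE 0.07; limma adjusted p = 0.025); with TMM scaling it was 0.17 (adjusted p = 0.065). The call as deposited was lost without the third control library (adjusted p = 0.072), without the first knockout library (adjusted p = 0.065) and without the second (adjusted p = 0.083), and after TMM scaling a rise was called without the third control library (log2 change 0.22; adjusted p = 0.023). Rarg, another isotype, fell under both scalings, from 8.49 ± 0.840 to 3.38 ± 0.926 FPKM (log2 change -1.13 and, TMM-scaled, -0.82; limma adjusted p = 1.7e-04 and 0.0019). Rarb did not exceed 0.32 FPKM.

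Vdr (chr15:97854427-97908296), the receptor for calcitriol, had the largest fall of the 10. It read 27.28, 23.97 and 17.40 FPKM in controls and 5.78, 5.64 and 4.23 FPKM in knockouts. The lowest control library stood well above the highest knockout library, and the mean was 77.2% lower. The log2 change came to -1.93 (SE 0.18; limma adjusted p = 9.2e-05), and to -1.59 with TMM scaling (adjusted p = 4.4e-04). It ranged from -2.11 to -1.80 when each library was left out in turn. Of all tested genes, 1.48% had a lower log2 change as deposited. Control libraries differed in Vdr and in lymphocyte, epithelial, and endothelial and stromal markers in the same order. The summed FPKM of 8 lymphocyte markers, none of them at 0 in every library, ranged from 18.15 to 35.46 in controls and from 6.49 to 7.83 in knockouts. The sum of 6 epithelial markers, 97.1 to 288 FPKM in controls and 40.9 to 111 FPKM in knockouts, overlapped between the groups. The sum of 6 endothelial and stromal markers ranged from 13.7 to 32.3 FPKM and from 3.78 to 7.96 FPKM. The part of any of these cells in the Vdr difference was not tested. The first control library was highest in the lymphocyte, epithelial, and endothelial and stromal sums. Without it the log2 change of Vdr was -1.80 (limma adjusted p = 1.2e-04).

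Nr3c1, the glucocorticoid receptor, acts without RXR. It read 25.79, 25.63 and 27.64 FPKM in controls and 17.97, 15.49 and 16.19 FPKM in knockouts. The groups were clearly apart (log2 change -0.64, SE 0.07; limma adjusted p = 4.8e-05), and TMM-scaled -0.28 (adjusted p = 0.0077). Esrra (chr19:6910977-6922048), an orphan receptor that works with PGC-1 coactivators on mitochondrial genes, read 33.89, 33.04 and 31.01 FPKM in controls and 24.09, 26.29 and 25.68 FPKM in knockouts. As deposited it fell by a log2 change close to the median of all genes (-0.35, SE 0.06; limma adjusted p = 8.2e-04), and with TMM scaling its log2 change was 0.01 (95% interval -0.13 to 0.15; adjusted p = 0.88).

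**Figure D2:**
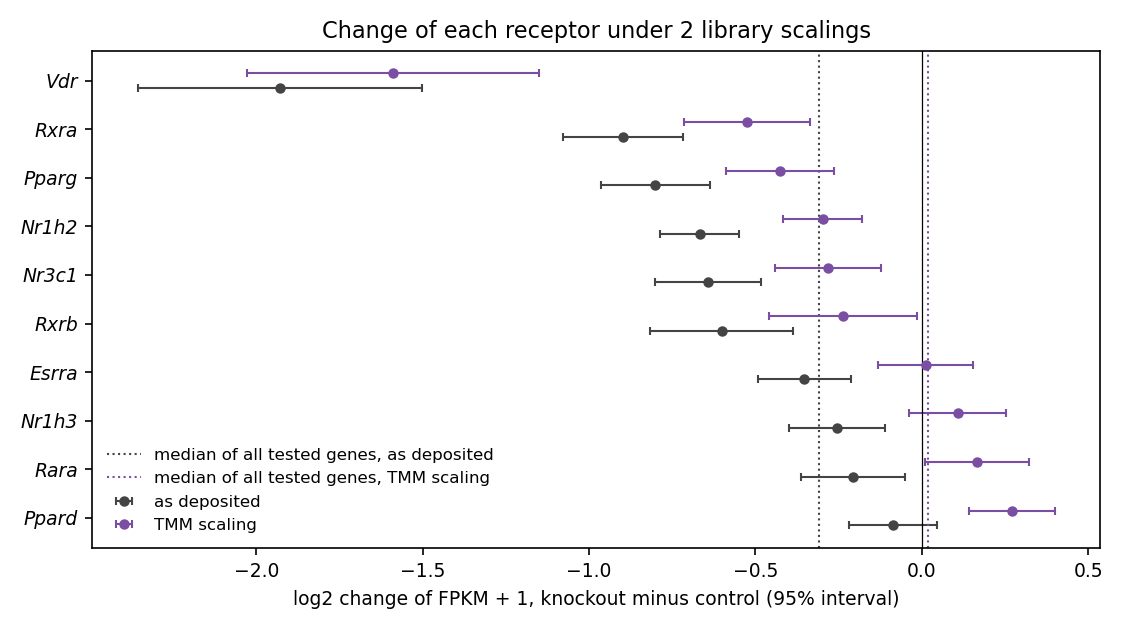
Log2 change of FPKM + 1 for each receptor, knockout minus control, with its 95% interval, as deposited and after TMM scaling; dotted lines mark the median of all tested genes. Vdr, Rxra, Pparg, Nr1h2, Nr3c1 and Rxrb lie below 0 under both scalings, and Nr1h3, Rara, Esrra and Ppard change sign.

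By level per length, the controls ran in the order Pparg, Rxra, Rara, Nr1h2, Rxrb, Esrra, Nr3c1, Nr1h3, Vdr and Ppard. In that order each receptor down to Esrra stood above the next in every library, while Nr3c1 and Nr1h3, Nr1h3 and Vdr, and Vdr and Ppard overlapped. In knockouts the order was Pparg, Rara, Rxra, Nr1h2, Esrra, Rxrb, Nr1h3, Ppard, Nr3c1 and Vdr. Pparg and Rara overlapped there, as did Esrra and Rxrb, Rxrb and Nr1h3, and Ppard and Nr3c1, while Vdr was below all others in every library.

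Ratios between receptors of the same library do not depend on how libraries are scaled, and 5 were compared. The level of Pparg was 7.05, 6.93 and 7.09 times that of Ppard in controls and 3.95, 4.28 and 4.62 times in knockouts. The groups did not overlap (log2 difference -0.72; exact two-sided permutation p = 0.1, adjusted p = 0.17), where 0.1 is the smallest p that 3 against 3 libraries allow. Nr1h3 stood at 0.480, 0.509 and 0.463 of Nr1h2 in controls and at 0.651, 0.652 and 0.633 in knockouts. This ratio was higher in every knockout library (log2 difference 0.42; exact permutation p = 0.1, adjusted p = 0.17). Nr1h3 relative to Pparg was higher in every knockout library too, at 0.204, 0.220 and 0.183 in controls and 0.324, 0.295 and 0.267 in knockouts (log2 difference 0.54; exact permutation p = 0.1, adjusted p = 0.17). Rxra relative to Rxrb overlapped between groups, with 2.98, 2.81 and 2.48 in controls and 2.28, 2.49 and 2.01 in knockouts (log2 difference -0.29; exact permutation p = 0.2, adjusted p = 0.25). Pparg relative to Rxra overlapped too, with 1.15 to 1.47 in controls and 1.23 to 1.46 in knockouts (log2 difference 0.10; exact permutation p = 0.6, adjusted p = 0.6).

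**Figure D3:**
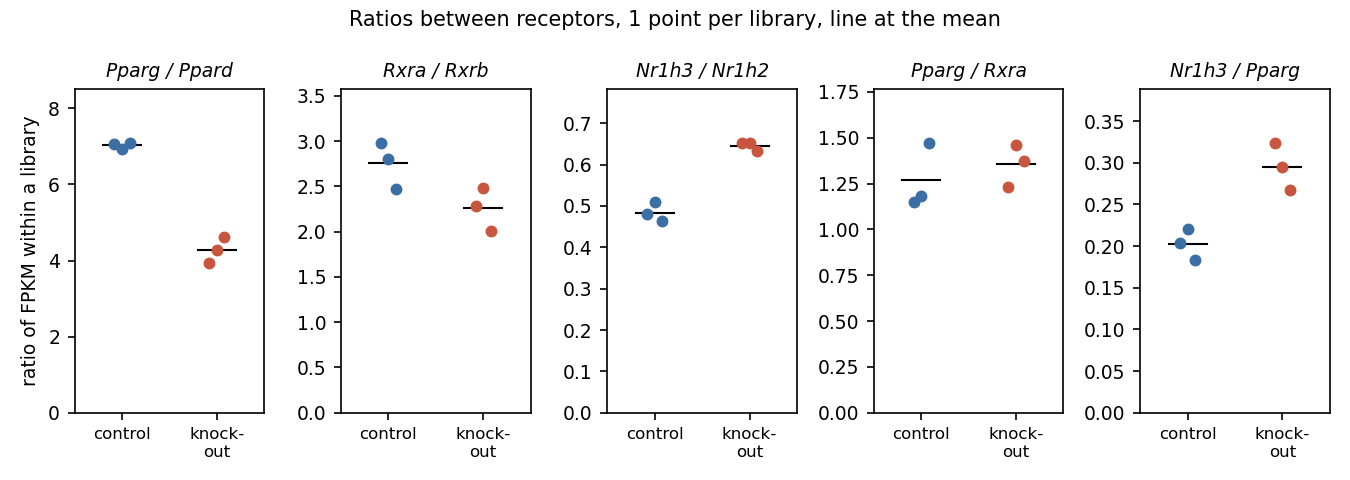
Ratio of FPKM between receptors of the same library, on axes that start at 0, with 1 point per library and a line at the mean of each group. Pparg to Ppard is 6.93 to 7.09 in controls and 3.95 to 4.62 in knockouts, and Nr1h3 to Nr1h2 is 0.463 to 0.509 and 0.633 to 0.652.

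Of 8 listed genes of the corepressor complexes, the deleted Hdac3 among them, 5 fell and 1 rose as deposited, a share of falls near the 58.8% of all tested genes. After TMM scaling 4 fell and 3 rose, beside 26.2% and 29.8% of tested genes. Besides Hdac3, the scaffold Ncor1 read 32.13, 29.85 and 30.96 FPKM in controls and fell to 20.20, 20.01 and 18.38 FPKM in knockouts (log2 change -0.64 and, TMM-scaled, -0.28; limma adjusted p = 2.4e-05 and 0.0043). Nrip1 (RIP140), a ligand-dependent corepressor, fell from 25.1 ± 1.33 to 10.2 ± 0.945 FPKM (log2 change -1.22 and, TMM-scaled, -0.86; adjusted p = 2.5e-06 and 2.8e-05). Among 11 tested coactivators 8 fell and 1 rose as deposited (all tested genes: 58.8% and 11%), and 5 fell and 3 rose after TMM scaling (26.2% and 29.8%). Their median log2 change of -0.43, and TMM-scaled -0.08, was near that of all tested genes, -0.31 and 0.02. The p160 coactivators Ncoa1 and Ncoa2 fell most. Ncoa1 read 19.51, 18.59 and 19.52 FPKM in controls and 7.92, 8.07 and 7.79 FPKM in knockouts (log2 change -1.18 and, TMM-scaled, -0.83; limma adjusted p = 6.5e-07 and 4.6e-06). Ncoa2 fell from 10.8 ± 0.625 to 3.83 ± 0.344 FPKM (log2 change -1.29 and, TMM-scaled, -0.96). The third p160 gene, Ncoa3, was not called as deposited (log2 change -0.05; adjusted p = 0.52) and rose after TMM scaling (0.31; adjusted p = 0.0038). The acetyltransferases Ep300 and Crebbp fell under both scalings, at log2 changes of -0.83 and -0.91 as deposited and -0.47 and -0.59 after TMM scaling. Ppargc1b (PGC-1 beta) fell from 5.54 ± 0.416 to 3.03 ± 0.196 FPKM, and Ppargc1a did not exceed 0.06 FPKM. The 1 rise as deposited was Ncoa4, which also serves as the ferritin autophagy receptor. Its log2 change was 0.29 and, TMM-scaled, 0.67 (limma adjusted p = 0.023 and 3.4e-04), and its groups overlapped in deposited FPKM. As deposited it was not called without the first or second control library or the first or second knockout library, where 0 coactivators rose.

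Of 26 other nuclear receptors listed, 24 were in the table and 8 were tested, while 16 did not exceed 1 FPKM in any library. Of the 8, 4 fell as deposited, a share below the 58.8% of all tested genes. Besides Rarg, the thyroid hormone receptor Thra and the orphan receptors Nr2c1 and Nr2c2 fell as deposited, and Nr2c2 was not called after TMM scaling (log2 change -0.46 and -0.15). Thra went from 8.04 ± 0.534 to 4.41 ± 0.435 FPKM (log2 change -0.74 and, TMM-scaled, -0.42; limma adjusted p = 6.2e-05 and 0.0022). Nr2f6, the most abundant of them, was not called at 15.7 ± 0.800 and 16.5 ± 1.49 FPKM and rose after TMM scaling (log2 change 0.07 and 0.42). The REV-ERB genes Nr1d1 and Nr1d2 were not called under either scaling.

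Of 9 tested genes that make or carry ligands or encode receptor chaperones 3 rose and 3 fell as deposited, beside 11% and 58.8% of all tested genes, and 5 rose and 1 fell after TMM scaling, beside 29.8% and 26.2%. Ch25h, which makes the LXR ligand 25-hydroxycholesterol, read 52.81, 56.00 and 54.87 FPKM in controls and 251.3, 255.83 and 200.74 FPKM in knockouts. Every knockout library was above 3 times the highest control (log2 change 2.08 and, TMM-scaled, 2.46; limma adjusted p = 3.1e-07 and 1.1e-07). Cyp27a1, which makes 27-hydroxycholesterol, fell from 6.86 ± 1.04 to 1.95 ± 0.176 FPKM (log2 change -1.41 and, TMM-scaled, -1.12; limma adjusted p = 7.0e-06 and 3.0e-05). Fabp5, a carrier of fatty acids and retinoic acid, rose from 239 ± 40.0 to 519 ± 18.7 FPKM (log2 change 1.13 and, TMM-scaled, 1.5). Hsd11b1, which regenerates active glucocorticoid, fell as deposited and was not called after TMM scaling (log2 change -0.66 and -0.40; adjusted p = 0.0051 and 0.055).

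Of 20 tested PPAR targets 8 rose and 9 fell as deposited, where 11% of all tested genes rose and 58.8% fell. After TMM scaling 9 rose and 5 fell, where 29.8% of tested genes rose and 26.2% fell. Their median log2 change was -0.17 and 0.21. Plin2, a lipid droplet coat protein, read 723.38, 726.73 and 630.24 FPKM in controls and 1677.57, 1557.65 and 1761.46 FPKM in knockouts (log2 change 1.26 and, TMM-scaled, 1.64; limma adjusted p = 2.2e-06 and 6.9e-07). Cd36, a fatty acid and scavenger receptor, rose from 111 ± 9.34 to 245 ± 10.4 FPKM (log2 change 1.13 and, TMM-scaled, 1.51). The lipase inhibitor Angptl4 and the peroxisome proliferation gene Pex11a rose too, at log2 changes of 1.06 and 1.45 as deposited and 1.44 and 1.80 after TMM scaling. Cidec, a lipid droplet fusion protein, fell from 181 ± 3.98 to 20.7 ± 0.720 FPKM (log2 change -3.07 and, TMM-scaled, -2.70; limma adjusted p = 2.9e-09 and 7.0e-09). The mitochondrial genes of the list went both ways. Ucp2, Acadvl and Cpt1a fell under both scalings. Their log2 changes were -0.79, -0.66 and -0.63 as deposited and -0.41, -0.30 and -0.25 after TMM scaling. Acadm fell under both too (log2 change -0.60 and, TMM-scaled, -0.23). Acadl (0.67 and 1.04), Acaa2 (0.19 and 0.56) and Pdk4 (0.47 and 0.78) rose under both scalings.

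Of 14 tested LXR targets 4 rose and 6 fell as deposited, beside 11% and 58.8% of all tested genes, and 7 rose and 3 fell after TMM scaling, beside 29.8% and 26.2%. The cholesterol exporters Abcg1 and Abca1 rose, Abcg1 from 351.92, 372.18 and 415.02 FPKM to 485.39, 453.2 and 495.36 FPKM (log2 change 0.33 and, TMM-scaled, 0.71; limma adjusted p = 0.0036 and 6.2e-05). Abca1 rose from 13.1 ± 2.35 to 18.9 ± 3.58 FPKM (log2 change 0.49 and, TMM-scaled, 0.84; limma adjusted p = 0.030 and 0.0036). The phosphodiesterase gene Smpdl3a and the desaturase Scd2 rose as well, at log2 changes of 0.20 and 0.53 as deposited and 0.58 and 0.88 after TMM scaling. Apoe, the lipoprotein component, fell from 16.5 ± 1.26 to 8.69 ± 2.33 FPKM (log2 change -0.88 and, TMM-scaled, -0.53; limma adjusted p = 0.0019 and 0.025). Srebf1, the regulator of fatty acid synthesis, read 27.39, 27.32 and 27.07 FPKM in controls and 16.76, 18.43 and 17.19 FPKM in knockouts (log2 change -0.62 and, TMM-scaled, -0.25). Mertk, the apoptotic cell receptor, fell (log2 change -0.60 and, TMM-scaled, -0.22), and Mylip (IDOL) fell as deposited only (log2 change -0.58 and -0.22; adjusted p = 0.011 and 0.24). Without the first control, the second control or the first knockout library 2 of these genes rose as deposited in place of 4.

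Of 11 tested glucocorticoid receptor targets 8 fell and 1 rose as deposited, beside 58.8% and 11% of all tested genes. After TMM scaling 5 fell and 3 rose, beside 26.2% and 29.8%. Their median log2 change was -1.13 and -0.81, against -0.31 and 0.02 for all tested genes. The count of rises as deposited was 2 without the first knockout library. The clock gene Per1 read 95.73, 72.09 and 67.54 FPKM in controls and 10.88, 13.37 and 23.21 FPKM in knockouts (log2 change -2.29 and, TMM-scaled, -1.93; limma adjusted p = 0.0022 and 0.0064). The Kruppel-like factor Klf9 read 11.54, 10.40 and 6.92 FPKM in controls and 1.08, 1.75 and 1.96 FPKM in knockouts (log2 change -2.02 and, TMM-scaled, -1.73; limma adjusted p = 1.2e-04 and 5.5e-04). The phosphatase Dusp1 fell from 861 ± 75.3 to 252 ± 114 FPKM (log2 change -1.86 and, TMM-scaled, -1.48; limma adjusted p = 0.0067 and 0.019). Fkbp5, a cochaperone of the receptor, fell from 41.1 ± 11.0 to 13.3 ± 0.353 FPKM (log2 change -1.53 and, TMM-scaled, -1.17).

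Only 3 RAR targets and 3 VDR targets were tested, and 12 of the estrogen-related receptor. Of 3 tested RAR targets, the retinal reductase Dhrs3 fell as deposited, from 233 ± 17.6 to 181 ± 17.2 FPKM (log2 change -0.37; limma adjusted p = 0.0038), with a log2 change of 0.01 after TMM scaling. Without the third control library 2 of the 3 were called, 1 of them higher. Of 3 tested VDR targets, Cd14, the lipopolysaccharide coreceptor, fell from 343 ± 35.6 to 118 ± 28.3 FPKM (log2 change -1.55 and, TMM-scaled, -1.18; limma adjusted p = 4.3e-04 and 0.0023). Slc37a2, a sugar phosphate transporter, rose from 3.52 ± 0.347 to 6.34 ± 1.57 FPKM (log2 change 0.68 and, TMM-scaled, 0.99; limma adjusted p = 0.0044 and 9.5e-04), and without the third control library 2 VDR targets fell in place of 1. Of 12 tested targets of the estrogen-related receptor 2 rose and 5 fell as deposited, and 8 rose and 0 fell after TMM scaling, where 4 were not called. The calls over all tested genes shifted the same way with the scaling, from 11% higher and 58.8% lower to 29.8% higher and 26.2% lower. Cox5a, a subunit of cytochrome oxidase, rose under both (log2 change 0.55 and 0.92; adjusted p = 7.4e-05 and 4.5e-06), as did the deacylase Sirt3 (log2 change 0.23 and 0.58). Idh3a, Uqcrc2, Tfam and Mdh2 fell as deposited only, at log2 changes of -0.39, -0.36, -0.35 and -0.26 as deposited and -0.03, 0.01, -0.04 and 0.12 after TMM scaling. As deposited, 1 rose without the first or second control library or the second or the third knockout library, and 3 fell without the second control library.

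**Figure D4:**
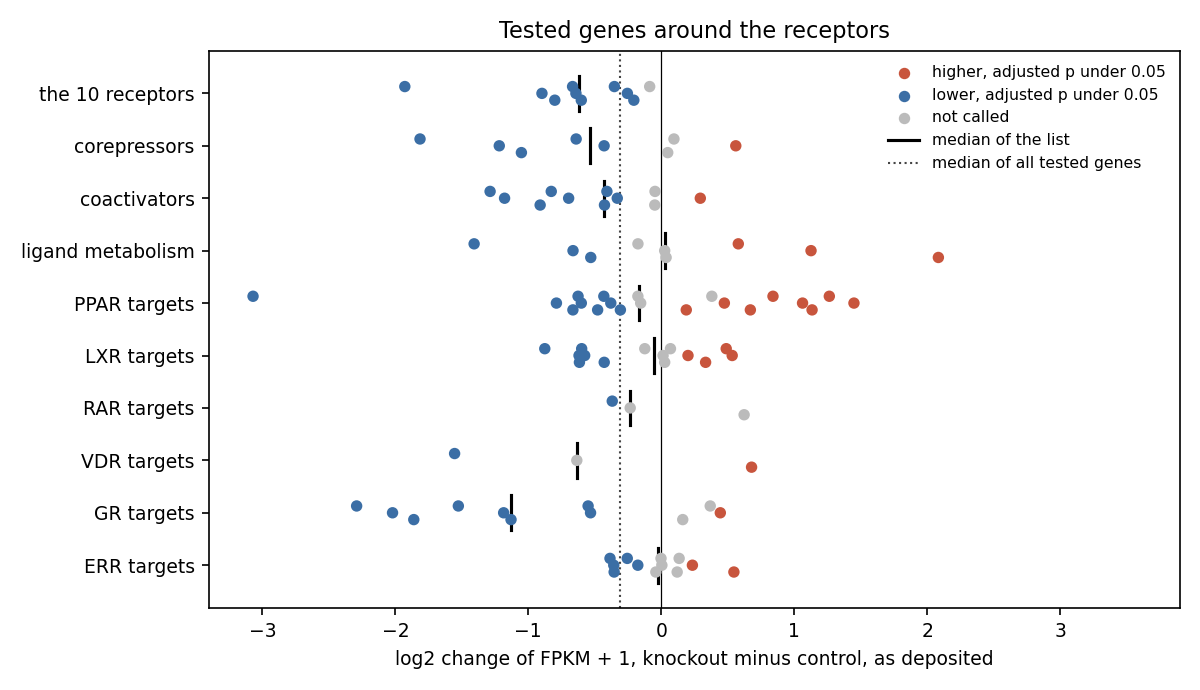
Log2 change of FPKM + 1, knockout minus control, as deposited, for each tested gene of the 10 receptors and of the lists around them; bars mark list medians and the dotted line the median of all tested genes, -0.31. The receptors have a median of -0.62 and the glucocorticoid receptor targets -1.13, while PPAR targets spread from -3.07 (Cidec) to 1.45 (Pex11a).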

How the data were processed

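RNA was measured in 6 libraries, 3 control and 3 knockout. The authors deposited gene-level FPKM, per the file headers, and the submitters' processing notes name Bowtie2, RSEM and mm10, without versions. The sources used here do not give strand handling or filters. FPKM keep no depth, so no counting interval is given. The test was limma 3.58.1 (R 4.3.3; trended, robust, two-sided) on log2(FPKM + 1) in 10847 genes averaging 1 FPKM or more, adjusted by Benjamini-Hochberg over all of them and called under 0.05. Receptor ratios were tested by exact permutation (scipy 1.17.1). TMM divisors, computed from the FPKM with 30% of log ratios and 5% of levels trimmed at each end, were 1.13 to 1.15 for controls and 0.873 to 0.883 for knockouts. The fit was tested on simulated data. The pseudocount of 1 FPKM makes changes of low genes look smaller. Alternatives were other scalings, pseudocounts, filters and variance models, a replicate block and leaving out each library.

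The receptors and lists were chosen with earlier results of these data known. The genes named were the 10 receptors and Hdac3, any gene of the coregulator, ligand and other receptor lists, in each target list up to 4 called rises and 4 called falls of the largest log2 change without overlap and reaching a group mean of 5 FPKM, and for Pparg and Nr1h3 the 3 unlisted genes correlating best with each. The alveolar macrophage markers and the PPAR targets Acadm, Acadl, Acaa2 and Pdk4 were named beyond this rule. Coordinates and promoters are from RefSeq on GRCm38.p6, the assembly of mm10. Nr3c1 is given without sequence.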

Additional observations from a re-analysis of the deposited data

How the results depend on the processing

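Scaling was the choice that moved most results. Over all tested genes 1194 rose and 6376 fell as deposited, 3237 rose and 2837 fell after TMM scaling, and 3531 rose and 2617 fell after median scaling. Of the receptors 9 fell and 0 rose as deposited, 5 fell and 1 rose after TMM scaling, and 5 fell and 2 rose after median scaling. The log2 change of Ppard turned from -0.09 to 0.27 after TMM scaling, 0.0381 with library sums without the 10 most abundant genes and 0.30 after median scaling. That of Nr1h3 turned to 0.11 and 0.14, of Rara to 0.17 and 0.20 and of Esrra to 0.0123 and 0.0469 after TMM and median scaling.

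For the lists, TMM scaling gave these counts higher and lower: other receptors 1 higher and 3 lower, corepressors 3 and 4, coactivators 3 and 5, PPAR targets 9 and 5, LXR targets 7 and 3, RAR targets 1 and 0, GR targets 3 and 5, ERR targets 8 and 0, and ligand genes 5 and 1. With no filter on low values 9 of 24 other receptors were called, all 9 lower. Among all 18392 genes that fit called 8784, and 7456 of these were lower. Of the 24 receptors, 16 did not exceed 1 FPKM in any library.

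When each library was left out in turn, the counts of rises ranged from 0 to 1 for coactivators, 2 to 4 for LXR targets, 0 to 1 for RAR targets, 1 to 2 for GR targets and 1 to 2 for ERR targets. RAR targets called ranged from 1 to 2 and VDR targets lower from 1 to 2. ERR targets called ranged from 4 to 7 and ERR targets lower from 3 to 5. Over all 10769 to 10900 genes tested in these fits, 1027 to 1165 rose and 5780 to 6080 fell. With TMM scaling and each library left out, chosen after seeing the data, Ppard took log2 changes of 0.267, 0.259, 0.284, 0.271, 0.239 and 0.268 (control 1 to 3, then knockout 1 to 3 left out), Nr1h3 0.114, 0.148, 0.0606, 0.0965, 0.0734 and 0.118, Rara 0.148, 0.132, 0.219, 0.161, 0.190 and 0.112, and Esrra 0.0415, 0.0241, -0.0288, 0.0318, -0.0192 and -0.0107.

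Deviations from the group mean correlated at -0.11 to -0.06 between libraries with the same number and at 0.01 to 0.09 between the others. Deviations within a group of 3 libraries depend on each other. These values therefore cannot tell whether the numbers pair libraries. With the replicate block 9 receptors were called, all 9 lower, and 2 RAR targets, 1 of them higher. That fit called 7373 of all 10847 tested genes, 6193 lower and 1180 higher. With TMM scaling and the block, also chosen after seeing the data, the log2 changes were those of TMM scaling alone, 0.27, 0.11, 0.17 and 0.0123 for Ppard, Nr1h3, Rara and Esrra, and Rara was called (limma adjusted p = 0.048). The causes were not tested. Depth is unknown and sets no limit that can be given.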

Other observations

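As shares of the summed FPKM of the 10 receptors, which do not depend on library scaling, Rara held 14.3, 14.4 and 16.6% in controls and 20.5, 19.5 and 20.6% in knockouts. Vdr held 5.03, 4.55 and 3.34% in controls and 1.74, 1.66 and 1.19% in knockouts. Ppard held 3.37 to 3.63% in controls and 4.80 to 5.28% in knockouts, and Nr1h3 4.72 to 5.23% and 5.92 to 6.67%. These shares were described after the values were seen and were not tested. A share can rise while the level falls, as for Rara, whose mean was 79.9 FPKM in controls and 69.1 FPKM in knockouts. Nr1h2 held 10.2 ± 0.0936% and 9.85 ± 0.446% (SD, n = 3), and Nr3c1 4.97 ± 0.285% and 4.85 ± 0.488%. The whole sum was 530.1 ± 10.6 FPKM in controls and 342 ± 11.2 FPKM in knockouts.

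Ranked by level among the 10847 tested genes, Pparg stood at rank 569 in controls and at rank 880 in knockouts by its mean. The level percentile was 63.4 and 68.5 for Ppard, and 69.8 and 34.6 for Vdr. Over the 6 libraries, which fall into 2 separate groups, the 3 unlisted genes whose log2(FPKM + 1) was most like that of Pparg were Thbs3, 1500004A13Rik and 4933427D14Rik (Pearson r from 0.9994 to 0.9998), and those most like Nr1h3 were Naa60, Atp5c1 and Mecr (r from 0.996 to 0.998).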
